A study of Caenorhabditis elegans with 28 samples.

Results

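Wild-type and ebax-1(tm2321) mutant Caenorhabditis elegans larvae were compared at equal clock hours, across every microRNA (miRNA) arm in the small RNA sequencing table. Each of the 14 wild-type libraries, from 18 h to 31 h, was paired with the mutant library collected at the same hour, so all 28 of the 28 libraries of the series entered the comparison. The wild type was strain N2, and the mutant was strain HW3527, which carries the tm2321 allele of ebax-1 on chromosome IV. Both strains were started as synchronised first-stage larvae, kept on plates at 25 °C without treatment, and sampled as whole animals every hour. There was 1 library for each strain and hour, and no replicate cultures or separate animals were named. The p-values below therefore rest on the scatter of single libraries about a smooth course, which may be technical, and the genotype cannot be told apart from the culture that was followed. In whole animals, fewer cells of a type and less RNA per cell cannot be told apart either. The libraries measured small RNAs, so the mRNA of ebax-1 itself gave no check of the labels here.

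Each miRNA hairpin can give 2 mature arms, 5p and 3p, of which usually 1 (the guide) is retained by Argonaute and the other (the passenger) is degraded. In the text, the guide is the arm with the higher mean in wild type. EBAX-1 selects substrates for a Cullin-RING ubiquitin ligase, and its mammalian counterpart ZSWIM8 acts in target-directed miRNA degradation, in which an extensively paired target triggers loss of the Argonaute that holds the miRNA. Larval development adds another source of difference at a fixed hour: heterochronic miRNAs such as lin-4 and let-7 rise in a set order, and many transcripts oscillate once per larval stage. A mutant that runs late would differ from wild type at a given hour wherever wild type was itself changing. The comparison thus asked which arms differed in the way that a later developmental course gives, and which differed by a steady amount.

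The table listed 437 arms. At least 1 read was found for 406, which were tested, and 209 of these averaged 50 or more normalised counts (reads divided by the library total and multiplied by the mean total) over the 28 libraries. Library totals ranged from 4938126 to 11683557 reads in wild type and from 4970366 to 13223782 in the mutant. Arms that mark tissues were present in every library, at or above 39.7 normalised counts for lsy-6-3p (neurons) and 347938 for miR-1-3p (muscle). The mutant library of 28 h stood apart, with 49 of the 209 arms more than 2-fold lower than in wild type, against 16 to 39 at the other hours.

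For each arm, the 14 hourly differences on the log2 scale (mutant minus wild type, with 8 added to each normalised count) were fitted with a mean, a linear trend and a 7 h rhythm in limma. The mean is called the offset, and its call required a Benjamini-Hochberg adjusted p below 0.01 over all tested arms. The offset was called for 125 of 406 arms (30.8%). It was higher in the mutant for 41 arms (10.1%) and lower for 84 (20.7%). A trend of the difference, which is the mutant slope minus the wild-type slope, was called for 8 arms (1.97%), upward for 2 (0.493%) and downward for 6 (1.48%). A 7 h rhythm of the difference was called for 36 arms (8.87%). Any strain effect, tested with the B-spline model of the study but without its shift in time, was called for 134 arms (33%). The balance of directions depended on the scaling: TMM factors gave 55 higher and 63 lower calls, and DESeq2 size factors 58 and 60. The median offset of the 209 well-measured arms was −0.19 as deposited, −0.06 under TMM and −0.05 under DESeq2 scaling. Small decreases below are to be read against that shift.

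The courses of the strains were most alike at a lag of 3 h. When the mutant libraries of 23 h to 31 h were set against wild-type libraries collected 0 to 5 h earlier, the spread (SD over hours) of the difference was taken for each of the 209 arms. The median SD was 0.44 at no lag, 0.41 at 1 h, 0.40 at 2 h, 0.38 at 3 h, 0.41 at 4 h and 0.42 at 5 h. The smallest SD fell at 3 h for 65 arms, against 36 arms for 2 h and 35 for 1 h. The SD does not depend on a steady offset between strains, so it reads only the shape of the courses. Among the 98 arms whose wild-type slope or rhythm was called, 35 had their smallest SD at 3 h and 12 at no lag.

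**Figure D1:**
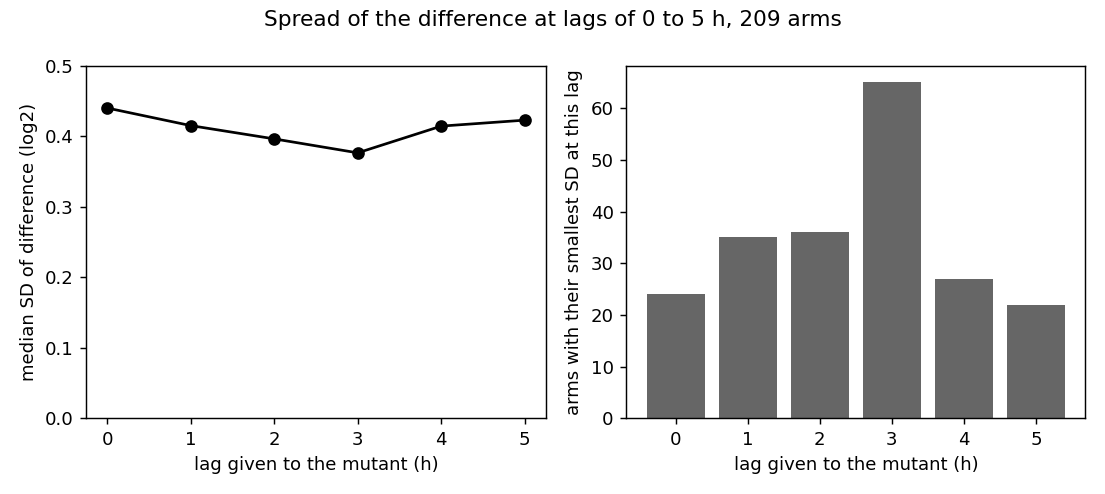
Left, median over 209 arms of the SD of the log2 difference between the mutant at hour t and wild type at hour t minus the lag, against the lag in h. Right, number of arms whose SD was smallest at each lag; 65 arms had it at 3 h and 24 at 0 h.

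Rhythms with a 7 h period gave a like reading. In 7 arms the rhythm was called in each strain, and all 7 were passengers: miR-79-5p, lin-4-3p, miR-39-5p, miR-44-5p, miR-45-5p, miR-52-3p and miR-237-3p. Their fitted peaks came later in the mutant by 2.75 h (miR-45-5p) to 3.19 h (miR-52-3p), with a circular mean of 3.00 h. Because phases are known only modulo the period of 7 h, phases alone cannot tell a lag from an advance of the remaining part of the cycle. From mRNA of the same samples, the study placed the mutant 3 h behind wild type. The passengers miR-44-5p and lin-4-3p are examples of the swings at equal hours, whose cause was not tested. Their fitted amplitudes were 1.29 and 1.79 in wild type and 0.75 and 1.11 in the mutant. miR-44-5p ranged from 382 to 6059 normalised counts in wild type (median 2455) and from 1615 to 6776 in the mutant (median 3297), so the ranges overlapped. Wild type peaked at 21 h and the mutant at 24 h, and the difference swung from −1.81 at 20 h to 2.09 at 24 h and was largest at 31 h (3.68). lin-4-3p, the passenger of the heterochronic lin-4 hairpin, ranged from 12.9 to 372 in wild type and from 26.3 to 239 in the mutant. Its difference was 3.48 at 18 h and −2.92 at 22 h, while its offset of 0.41 ± 0.20 was not called (limma adjusted p = 0.118). Here and below, ± gives the SE from the limma fit of the 14 hourly differences. The trend and 7 h rhythm are part of that fit, so a fitted swing does not widen the SE.

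**Figure D2:**
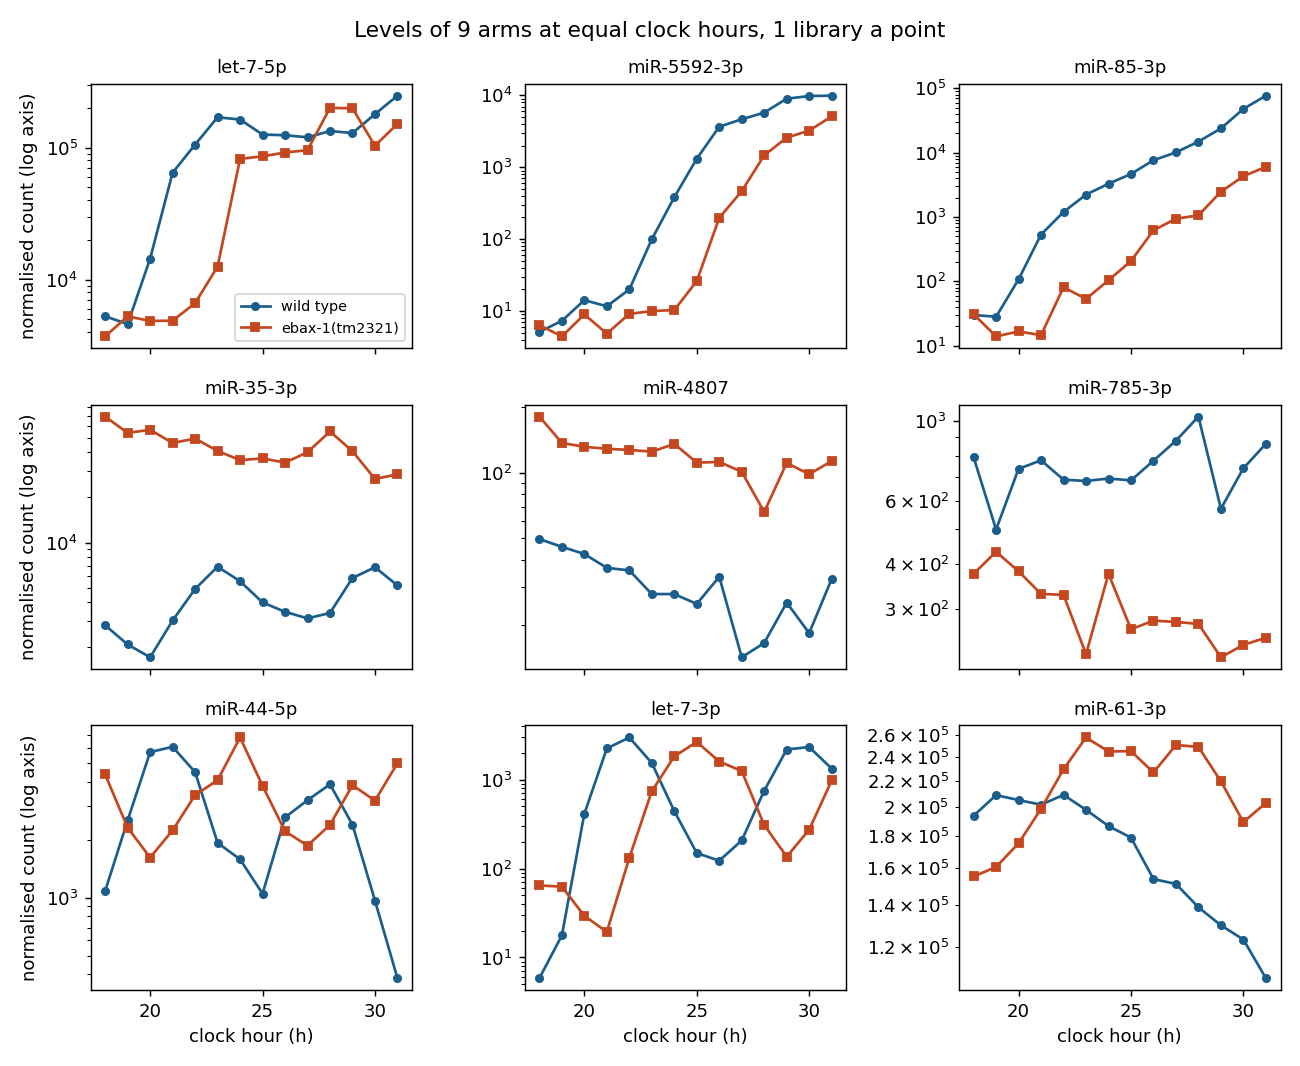
Normalised counts (log axes) against clock hour (h) for 9 arms in wild type (circles) and ebax-1(tm2321) (squares), 1 library a point. In the top row the mutant courses run later, in the middle row they lie apart at all 14 hours, and in the bottom row miR-44-5p and let-7-3p oscillate out of step while miR-61-3p crosses.

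Called arms that averaged 50 or more were then sorted by an exact split at a lag of 3 h, over mutant hours 21 to 31. The whole equal-hour difference equals the change that wild type made over the 3 h (wild type 3 h earlier minus wild type at the hour) plus a remainder (mutant minus wild type 3 h earlier). Where the wild-type change had the sign of the whole and the remainder was under 50% of it, the arm was called delay-following. Where the remainder kept the sign and at least 50% of the size, it was called offset-keeping. Of 106 such arms, 25 were delay-following (8 higher, 17 lower) and 81 offset-keeping (29 higher, 52 lower). The terms share libraries, so they carry no test. The arms nearest the border were miR-75-5p, with a remainder at 49.8% of the whole (inside), and miR-1829b-3p at 54.0% (outside). The sorting depended on the lag for delay-following arms, of which there were 12 at a lag of 2 h and 30 at 4 h. Of the 25, 11 had the same class under all 5 alternative settings, against 72 of the 81.

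**Figure D3:**
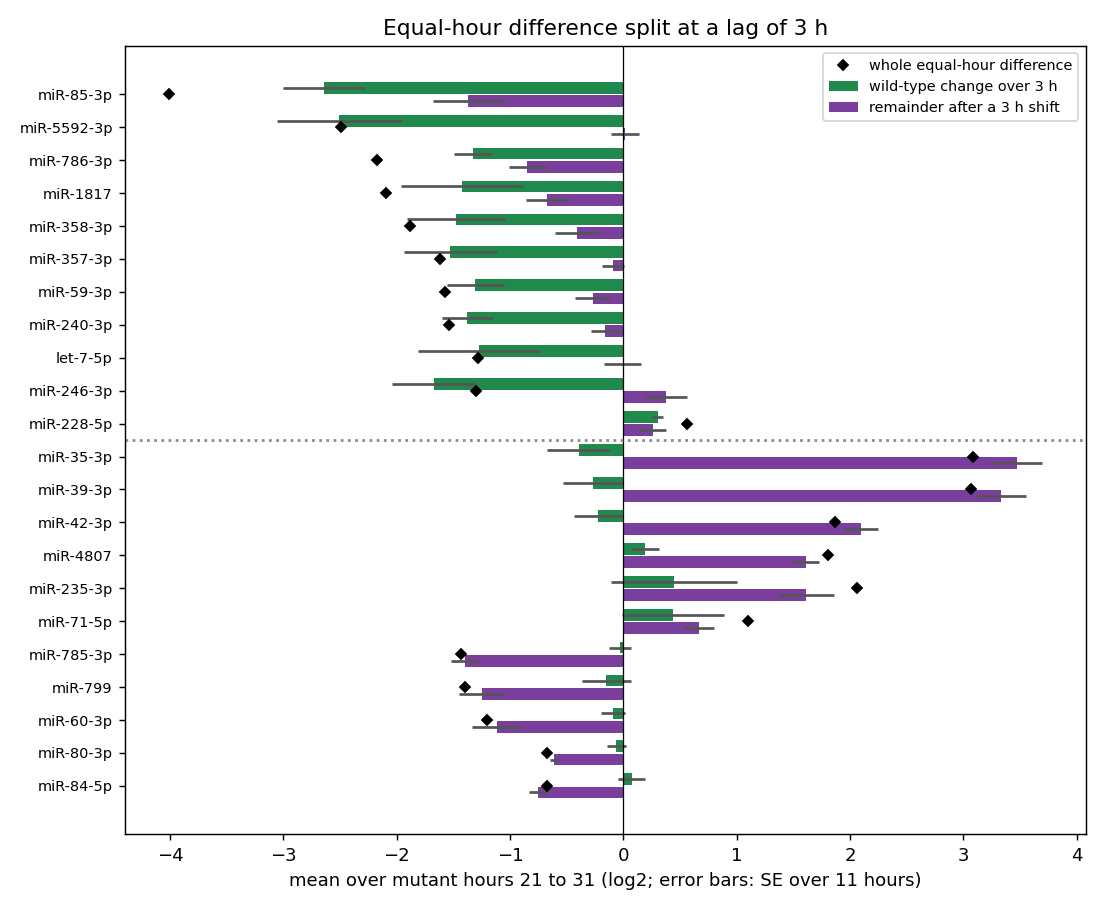
For named arms, the mean log2 difference over mutant hours 21 to 31 (diamonds), split into the wild-type change over 3 h (upper bars) and the remainder after a 3 h shift (lower bars), with SE over 11 hours. Arms above the dotted line are delay-following and those below offset-keeping; for let-7-5p the remainder was −0.01, and for miR-35-3p it was 3.48.

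The delay-following arms with the largest differences were miRNAs that rose late in wild type. All 5 miRNAs of the late-rising list (guides of mir-357, mir-358, mir-359, mir-85 and mir-246) were called lower in the mutant, against 20.7% of all tested arms, and were delay-following. Choosing arms by a late rise favours both outcomes in advance when a strain lags. The closer background is the 23 arms with a called upward slope in wild type: 18 were called lower and 14 were delay-following. miR-85-3p ranged from 28.1 to 76953 normalised counts in wild type (median 3974) and from 13.9 to 6036 in the mutant (median 155). It reached 534 at 21 h in wild type and 621 at 26 h in the mutant, and the strains differed least at 18 h. Its offset was −3.36 ± 0.33 (limma adjusted p = 4.41e-06), lower at 13 of 14 hours. The whole difference of −4.01 held a wild-type part of −2.64 and a remainder of −1.37, the largest remainder among the 25, so a lag of 3 h left it well below wild type. At 29 h to 31 h it averaged 49554 in wild type and 4270 in the mutant.

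For miR-5592-3p a 3 h lag left a remainder near 0. It ranged from 5.11 to 9913 in wild type (median 848) and from 4.42 to 5102 in the mutant (median 18.1). The strains overlapped in range and were close at 18 h (0.13), and the difference reached −5.28 at 25 h before narrowing to −0.96 at 31 h. The offset was −1.99 ± 0.40 (limma adjusted p = 0.00151), and a wild-type part of −2.51 left a remainder of 0.02. Its passenger miR-5592-5p had an offset of −1.50 ± 0.34, a wild-type part of −2.28 and a remainder of 0.29. That call was lost when the pseudocount was 1, with the hour as a block and the mean difference alone (limma adjusted p = 0.01003), and in 2 of the 14 fits that each left out an hour.

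miR-357-3p and miR-358-3p come from neighbouring hairpins on chromosome V (annotation of WBcel235) and moved alike. miR-357-3p ranged from 129 to 8330 in wild type (median 1736) and from 144 to 5510 in the mutant (median 189), with the lowest difference, −3.58, at 25 h. Its offset was −1.24 ± 0.30 (limma adjusted p = 0.00453) and its remainder −0.09. This call rested on single hours, since it was kept in 7 of the 14 fits that left out an hour, and it was lost in edgeR with the hour as a block (adjusted p = 0.0207). miR-358-3p was also lowest relative to wild type at 25 h (−4.08), with an offset of −1.57 ± 0.23 and a remainder of −0.41. No read of it was counted in the mutant at 19 h, 21 h or 24 h, which allows up to 1.90 to 2.91 normalised counts (3 reads), and at 31 h the mutant had 184 and wild type 522. miR-359, next to mir-785 on chromosome X, had an offset of −0.93 ± 0.14 and a remainder of −0.44, whereas its neighbour miR-785-3p was offset-keeping (below).

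A pair of neighbouring hairpins on chromosome X, mir-240 and mir-786, gave 3 of the 25 arms. In worms, miR-786 acts in the posterior intestine in the pacing of defecation. miR-786-3p ranged from 13.9 to 1019 in wild type (median 265) and from 3.79 to 278 in the mutant (median 53.9). It was lower in the mutant at all 14 hours, with a difference of −0.84 at 18 h and −2.85 at 29 h and an offset of −1.98 ± 0.10 (limma adjusted p = 6.39e-09). Its wild-type part was −1.32 and its remainder −0.85, so both terms were sizeable. miR-240-5p was lower at all 14 hours too, and its difference was widest at the start: 258 in wild type against 7.42 in the mutant at 18 h, and 3036 against 2078 at 31 h. Its offset was −1.77 ± 0.20, that of miR-240-3p −1.55 ± 0.13, and their remainders were −0.58 and −0.16.

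The remaining strongly lowered arms of this kind were miR-1817, miR-59-3p, miR-77-3p and miR-246-3p. miR-1817 was at 59.3 normalised counts in wild type at 27 h and rose to 2342 at 31 h, where the mutant had reached 85.9. Its offset was −1.77 ± 0.26 (limma adjusted p = 0.000124). miR-59-3p ranged from 618 to 19089 in wild type and from 722 to 11117 in the mutant, with an offset of −1.18 ± 0.24 and a remainder of −0.27. miR-77-3p had an offset of −1.07 ± 0.12, and a wild-type part of −0.58 against a remainder of −0.45. The difference of miR-246-3p was 1.54 at 22 h and −2.85 at 26 h. Its difference fell by 0.37 per h on the log2 scale (SE 0.03, limma adjusted p = 7.01e-05), the steepest trend of the 8 called. Its mean difference is an average over both signs, and it was lower at 9 of 14 hours. The call of this offset was lost with the hour as a block, in limma with the mean difference alone (adjusted p = 0.0698), edgeR (adjusted p = 0.141) and DESeq2 (adjusted p = 0.0401). At a lag of 4 h, or without hours 28, 29 and 31, miR-246-3p was in neither class.

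let-7-5p, the guide that sets the larval-to-adult switch, had the smallest remainder of the 25 arms. In wild type it went from 14433 normalised counts at 20 h to 64543 at 21 h, and in the mutant from 12559 at 23 h to 82146 at 24 h. Over all hours it ranged from 4607 to 247287 in wild type (median 124774) and from 3716 to 199868 in the mutant (median 84033), so the ranges overlapped. The difference was −3.99 at 22 h and 0.62 at 29 h. The wild-type part of −1.27 took up the whole of −1.28, and the remainder was −0.01. The offset itself, −1.14 ± 0.30, passed narrowly (limma adjusted p = 0.00907). It was not called with TMM factors (limma adjusted p = 0.0223) or DESeq2 size factors (limma adjusted p = 0.0227), and it was called in 4 of the 14 fits that left out an hour. With the hour as a block and the mean difference alone the limma adjusted p was 0.0353. Over the alternatives its value lay between −1.71 and −0.90.

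The 8 delay-following arms that were higher in the mutant fell in wild type over these hours, and their differences were smaller. miR-228-5p, an arm expressed in glia, ranged from 48478 to 116577 in wild type (median 78844) and from 76345 to 171045 in the mutant (median 107736), with overlapping ranges. Its offset was 0.46 ± 0.08 (limma adjusted p = 0.000742), and the remainder was 46.1% of the whole. The 7 others were miR-228-3p (0.34), miR-233-3p (0.37), miR-796 (0.66), miR-1018 (0.36), miR-4813-3p (0.30), miR-44-5p (0.54) and miR-45-5p (0.48), all as offsets on the log2 scale. The last pair are rhythmic passengers, higher in the mutant at 7 and 8 of 14 hours, so their mean is a residue of a swing in both directions. The call was lost in 7 of 15 alternatives for miR-44-5p, among them that without hours 28, 29 and 31, and in 5 of 15 for miR-45-5p. With the hour as a block and the mean difference alone, the limma adjusted p was 0.33 and 0.291.

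Across arms, the offset leaned against the wild-type slope. Over 209 arms the least-squares line was −2.30 log2 units of offset per log2 unit of slope per h, which has the unit of hours, with Pearson's r of −0.43 and Spearman's rho of −0.38 as descriptions. With the slope of the mutant in place of that of wild type the line was −3.03. In the 192 arms outside the mir-35 to mir-43, mir-71 and mir-235 hairpins, a subset chosen after seeing the data, it was −2.37 with r of −0.66. The arms share libraries and scaling, and no p is given.

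The relation was uneven between rising and falling arms. Of 23 arms with a called upward slope in wild type, 22 were lower in the mutant, 18 of them called, with a median offset of −0.95. miR-237-5p was the exception. Of 53 arms with a called downward slope, 24 were higher and 29 lower, with 11 and 12 called, and their median offset was −0.02. Of 133 arms without a called slope, 88 were lower. The 53 falling arms held 7 delay-following and 16 offset-keeping arms, and the 23 rising arms held 14 and 5. Falling wild-type courses were also shallower, as the plot of offset against slope shows.

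**Figure D4:**
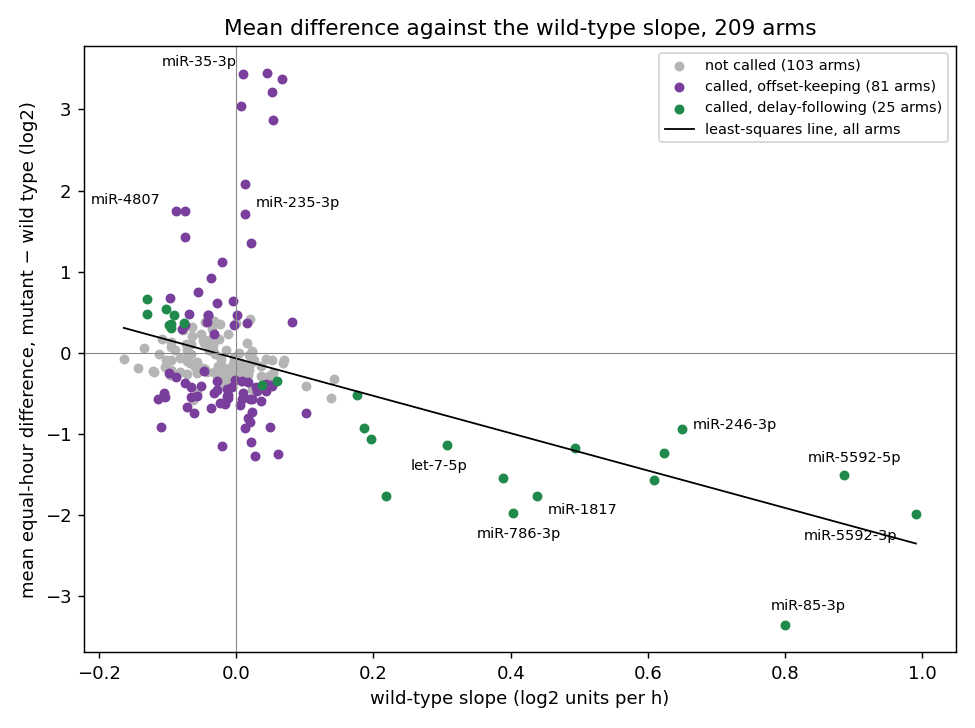
Mean equal-hour log2 difference (mutant minus wild type) against the wild-type slope in log2 units per h, 1 point for each of 209 arms, coloured by class, with the least-squares line (−2.30 h). The rising arms lie low on the right, and the mir-35 family guides (3.44 for miR-35-3p) stand above the line near a slope of 0.

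The offset-keeping arms were led by the mir-35 family, a set of related miRNAs needed in the embryo that worms normally clear around hatching. Guides of 6 of its 8 hairpins (mir-35 to mir-40, a cluster on chromosome II) were higher in the mutant at all 14 hours, and the levels of the strains did not overlap. miR-35-3p ranged from 1719 to 6900.2 normalised counts in wild type (median 3722) and from 26557 to 69145 in the mutant (median 40707), an offset of 3.44 ± 0.10 (limma adjusted p = 2.17e-11). miR-39-3p ranged from 1841 to 5930.2 and from 18722 to 69151, an offset of 3.44 ± 0.06. The offset was 3.38 for miR-38-3p, 3.21 for miR-37-3p, 3.05 for miR-40-3p and 2.87 for miR-36-3p. Their wild-type parts had the opposite sign to the whole, at −0.39 for miR-35-3p, so the remainder of 3.48 was larger than the whole of 3.08. The study had already reported higher levels of this family in the mutant from this time course. These arms share the seed and much of their sequence, and how reads common to several were divided is not given in the sources used here.

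This offset was not constant. For each of the 6 guides the difference was largest at 20 h (5.03 for miR-35-3p and 4.11 for miR-40-3p) and smallest between 29 h and 31 h (1.95 and 1.81). The difference fell by 0.15 per h for miR-38-3p, 0.15 for miR-36-3p, 0.13 for miR-39-3p and 0.08 for miR-40-3p on the log2 scale, with limma adjusted p of 0.00615, 0.00379, 0.000436 and 0.00553. For miR-35-3p and miR-37-3p the trend was −0.11 per h in each, and neither was called (limma adjusted p = 0.0257 for both). The mean level of miR-35-3p went from 59797 at 18 h to 20 h to 31876 at 29 h to 31 h in the mutant, and from 2207 to 5943 in wild type. A 7 h rhythm of the difference was called for 5 of these 6, all but miR-38-3p. The SD over hours was larger after the shift in 5 of these 6 (0.65 at equal hours and 0.72 after the shift for miR-35-3p), and smaller for miR-40-3p (0.60 and 0.52).

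In the mir-41 and mir-42 hairpins the 5p arm was the more abundant in wild type and its offset was not called (0.11 and 0.06). The study modelled the 3p arms of both hairpins as the guides, and miR-41-3p averaged under 50 normalised counts here. The 3p arms of mir-42 and of its neighbour mir-43 were higher in the mutant. miR-42-3p ranged from 108 to 320.0 in wild type (median 219) and from 671 to 1144 in the mutant (median 908), with no overlap, an offset of 2.08 ± 0.08 and no called trend. miR-43-3p ranged from 175 to 596 and from 605 to 1918, and its offset was 1.75 ± 0.15. The differences of their 5p partners ran from −2.29 (20 h) to 2.90 (31 h) for miR-42-5p and from −2.59 (28 h) to 2.07 (31 h) for miR-43-5p. The arms of 1 hairpin thus differed in kind: a rhythm of the difference without an offset on the 5p side and an offset on the 3p side.

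Other arms tied to EBAX-1 by the study were next. The study tied the mir-35 family, miR-235 and miR-71 to EBAX-1 partly on these samples, so their direction is no independent evidence. It tied miR-247 and miR-788 to EBAX-1 in a separate time course that started and ended later than this one. miR-235-3p, the worm counterpart of miR-92, ranged from 18141 to 172382 in wild type (median 87894) and from 138581 to 318434 in the mutant (median 221263), so the ranges overlapped. Its difference was −0.20 at 19 h, 3.73 at 22 h and 3.49 at 29 h. The offset was 1.71 ± 0.12 (limma adjusted p = 1.74e-07), and a remainder of 1.61 stood beside a wild-type part of 0.45. The rhythm of the difference was called (limma adjusted p = 0.00019), with an amplitude of 1.31 in wild type and 0.27 in the mutant. miR-71-5p, which in worms acts in neurons and in lifespan, ranged from 63928 to 460776 in wild type and from 254235 to 576176 in the mutant. Its difference lay between −0.46 (26 h) and 2.99 (31 h), with an offset of 0.91 ± 0.10 and a remainder of 0.67. That call was lost in the fit with the hour as a block and the mean difference alone (limma adjusted p = 0.0147). miR-247-3p had no called offset (0.14). In mir-788 the 3p arm was the more abundant here and had no called offset (−0.49), whereas the 5p arm, which the study followed, had an offset of −0.57 ± 0.11 (limma adjusted p = 0.00135). Blocking on the hour with the mean difference alone left the offset of miR-788-5p uncalled (limma adjusted p = 0.0353).

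Beside these, a group of arms was higher by an amount that hardly varied with the hour. miR-4807 was the steadiest called arm: 98.2% of its summed squared hourly differences was carried by the mean. It ranged from 14.2 to 49.7 normalised counts in wild type (median 30.2) and from 66.1 to 181 in the mutant (median 119), without overlap, and its hourly difference stayed between 1.43 and 2.30. The offset was 1.75 ± 0.07 (limma adjusted p = 3.14e-10), and over the alternatives it lay between 1.28 and 2.13. miR-34-5p, of a conserved family tied to stress responses, ranged from 15883 to 26370 in wild type and from 35755 to 55971 in the mutant, with an offset of 1.11 ± 0.05. miR-253-3p (1.35 ± 0.10) and miR-230-3p (1.42 ± 0.07) did not overlap between strains either, but for miR-230-3p a rhythm of the difference was called. In all, 12 of the 209 arms had mutant levels wholly above those of wild type, and 8 wholly below, beside the 10.1% and 20.7% of tested arms whose offset was called in each direction. The guides miR-44-3p and miR-45-3p, which are known to be identical in mature sequence and cannot be told apart by reads, had offsets of 0.46 and 0.47.

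**Figure D5:**
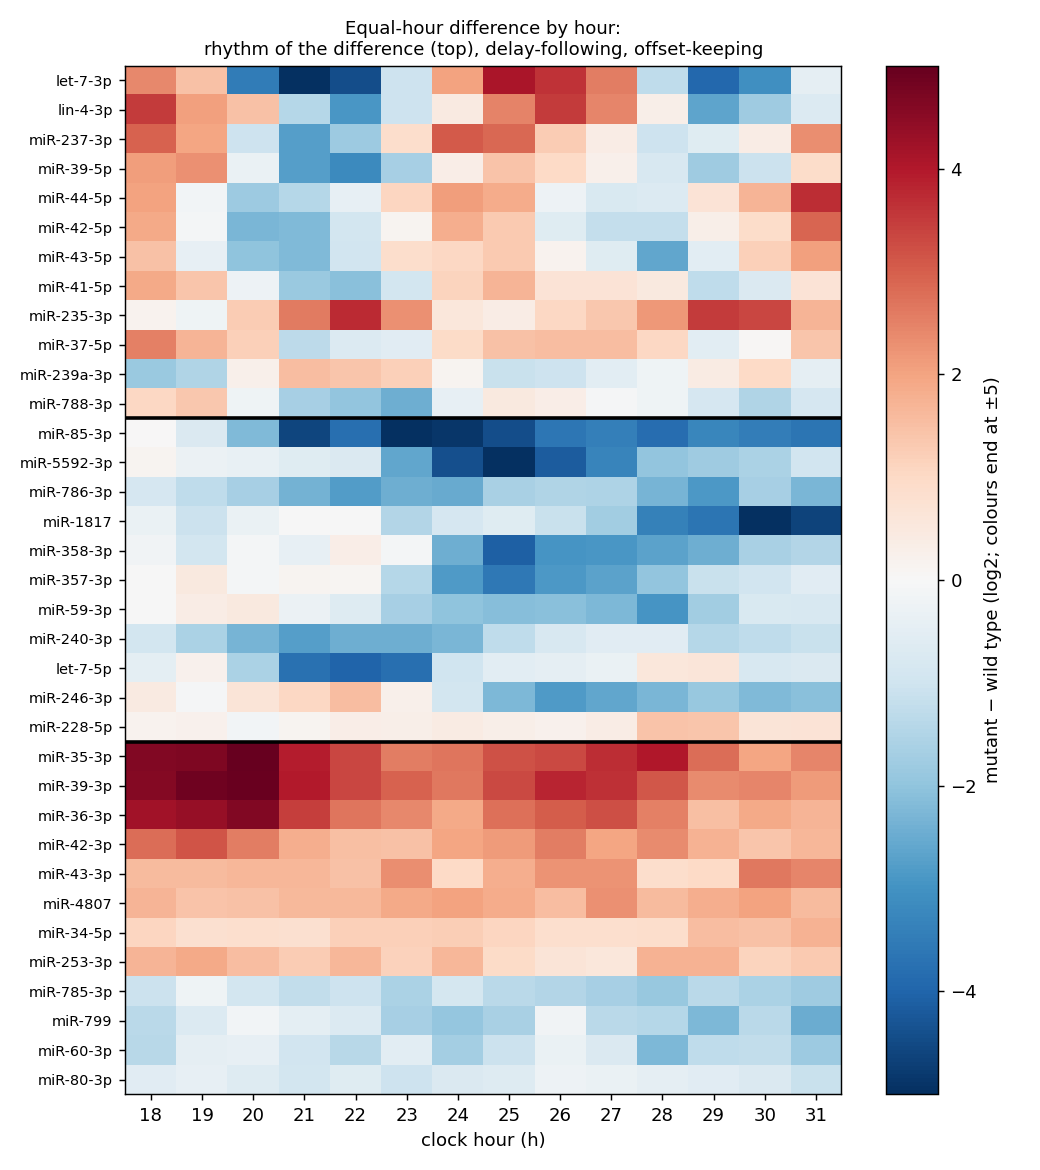
Log2 difference (mutant minus wild type, colour) at each clock hour (columns) for named arms (rows). The top block holds the 12 arms with the largest rhythm of the difference which mostly alternates in sign, the middle block the delay-following arms of the split plot, and the bottom block 12 offset-keeping arms, which keep 1 sign at all 14 hours.

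With the deposited scaling, steady decreases were more numerous than steady increases. Of the 81 offset-keeping arms, 64 had neither a called trend nor a called rhythm of the difference, 14 of them higher and 50 lower. In 24 of the 64 the mean carried at least 80% of the squared difference, and in 9 at least 90%. miR-785-3p ranged from 499 to 1029 in wild type (median 738) and from 220.3 to 433 in the mutant (median 277), without overlap. It was lower at all 14 hours, with an offset of −1.28 ± 0.08 (limma adjusted p = 9.16e-08), a wild-type part of −0.03 and a remainder of −1.40. miR-799 was also lower at every hour (−1.25 ± 0.13), although its levels overlapped, from 72.2 to 205 in wild type and from 21.9 to 129 in the mutant. miR-1829c-5p (−0.93 ± 0.07), miR-789-5p (−0.92 ± 0.07) and both arms of mir-63 (−0.63 ± 0.05 for miR-63-3p and −0.45 ± 0.05 for miR-63-5p) did not overlap between strains.

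Of the 7 let-7 family guides, 6 were called lower in the mutant, against 20.7% of all tested arms. At a lag of 3 h let-7-5p was delay-following and the other 5 offset-keeping. The offsets were −0.62 ± 0.08 for miR-84-5p, −0.55 ± 0.07 for miR-795-5p, −0.50 ± 0.05 for miR-793, −0.47 ± 0.06 for miR-794-5p and −0.40 ± 0.03 for miR-48-5p, and all 5 stayed called and negative with TMM factors and DESeq2 size factors. miR-84-5p, which is expressed in the epidermis, ranged from 51576 to 102219 in wild type (median 83701) and from 43089.8 to 71439 in the mutant (median 50551). It was lower at 13 of 14 hours, with a remainder of −0.75. For miR-793 and miR-795-5p the wild-type part (0.33 and 0.19) ran against the whole, because both fell with time in wild type, so the remainders of −0.81 and −0.68 were larger than the offsets. For miR-48-5p a wild-type part of −0.15 and a remainder of −0.19 were close in size, and it kept its class in 2 of 5 alternatives, being delay-following at a lag of 4 h, with TMM factors and without hours 28, 29 and 31. miR-241-3p, the more abundant arm of its hairpin here, had an offset of −0.28 that was not called. Its partner miR-241-5p, which the study modelled as the guide, was called lower at −0.56 ± 0.09 (limma adjusted p = 0.000398).

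miR-237-5p, a relative of lin-4, was higher in the mutant by 0.38 ± 0.07 (limma adjusted p = 0.00104), against its own upward slope in wild type. The call was lost with a period of 6 h, with hours 21 to 31 alone, and with the hour as a block and the mean difference alone (limma adjusted p = 0.0227). A wild-type part of −0.38 was outweighed by a remainder of 0.74. lin-4-5p, the first heterochronic miRNA of the larva, had an offset of 0.24 ± 0.07 that missed the threshold (limma adjusted p = 0.0163), and it passed with TMM factors (0.37) and DESeq2 size factors (0.38). A rhythm of the difference was called for both guides and both passengers of the family.

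The mir-58 family, related to bantam of flies, held the most abundant arms of the table. miR-80-3p alone of its 5 guides was called, at −0.64 ± 0.06 (limma adjusted p = 1.8e-06). It ranged from 40282 to 60907 in wild type and from 26419 to 35209.8 in the mutant, without overlap. miR-58a-3p (−0.22), miR-81-3p (−0.28) and miR-82-3p (−0.25) had offsets near the median of all well-measured arms and were not called. miR-58b-5p had under 10 normalised counts in every library. In the mir-51 family, 1 guide was higher (miR-51-5p, 0.23) and 2 lower (miR-55-3p, −0.43, and miR-56-3p, −0.23). The call of miR-51-5p was lost in 8 of 15 alternatives and that of miR-56-3p in 10 of 15, and each was kept in 3 of the 14 fits that left out an hour. With the hour as a block and the mean difference alone, the limma adjusted p was 0.0719 for miR-51-5p and 0.0543 for miR-56-3p. For miR-55-3p the call was lost in edgeR with the block (adjusted p = 0.0207). The family's balance turned with the scaling, because with TMM factors miR-52-5p (0.23) and miR-54-3p (0.28) were called higher and miR-56-3p was not called.

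Arms that mark tissues moved in part. Of the 6 guides on that list, 1 was higher (miR-228-5p; 10.1% of all tested arms) and 4 were lower (20.7% of all tested arms): miR-60-3p of the intestine (−1.11 ± 0.14), lsy-6-3p of a gustatory neuron (−0.54 ± 0.10), miR-84-5p (above) and miR-1-3p of muscle (−0.35 ± 0.07). miR-124-3p, found in sensory neurons, was not called (0.15). miR-60-3p ranged from 1188 to 2335 in wild type (median 1780.0) and from 341 to 1319.7 in the mutant (median 972), and it was lower at all 14 hours. miR-1-3p did not pass under the other scalings, where its offset was −0.22 (TMM, limma adjusted p = 0.0429) and −0.21 (DESeq2 size factors, limma adjusted p = 0.0524). The part of tissue proportions in the other differences was not tested.

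Trends in the difference were called upward for miR-61-3p and miR-788-5p. miR-61-3p, which acts in vulval fate choice, ranged from 107175 to 208884 in wild type and from 155230.0 to 257489 in the mutant. It was lower in the mutant from 18 h to 21 h (a difference of −0.38 at 19 h) and higher from 22 h on (0.92 at 31 h). The difference rose by 0.10 ± 0.01 per h (limma adjusted p = 0.000436), since the arm fell in wild type (−0.08 per h) and did not in the mutant (0.03 per h). miR-788-5p, the less abundant arm of its hairpin here, had a difference of −1.55 at 23 h and 1.01 at 31 h, which rose by 0.17 ± 0.03 per h (limma adjusted p = 0.00572). Without hours 28, 29 and 31, 4 trends were called in all.

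Rhythm of the difference was the mark of 32 of the 209 arms, 14 of which were passengers and 14 of which had no called offset. In 27 of the 32 the SD over hours fell after the 3 h shift, against 122 of all 209 arms. In 27 of the 32 the fitted peak came 2 to 3.5 h later in the mutant, and in 28 the fitted amplitude was lower in the mutant. Selecting arms by a swing at equal hours picks a large SD and a shifted peak, so the counts of SD and peak were favoured in advance. A rhythm in the mutant itself was called for 9 of the 209 arms, so many of these mutant peaks are uncertain. The widest swing was in let-7-3p, the passenger of let-7. It ranged from 5.84 to 2987 in wild type (median 598) and from 19.4 to 2667 in the mutant (median 292). Its difference went from −6.36 at 21 h to 4.09 at 25 h, an amplitude of 4.13, and its SD fell from 3.49 at equal hours to 0.81 after the shift. Its offset of −0.56 was not called and its remainder was 0.66, so the mean at equal hours and the mean after the shift had opposite signs.

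Arms without a called offset could still have a remainder. Of the 209 well-measured arms 106 had a called offset, and 13 of the others had a remainder above 0.5 in size. In 10 of these 13 the wild-type part had the opposite sign, and in 3 (miR-788-3p, miR-239b-5p and miR-72-3p) it had the same sign. Since the parts sum to the whole, choosing a large remainder without a called offset favours opposite signs in advance. miR-229-3p had an offset of −0.19 ± 0.13, and its whole of −0.23 over mutant hours 21 to 31 was the sum of a wild-type part of 0.48 and a remainder of −0.71. miR-2-5p (0.32 and −0.65), miR-87-3p (0.31 and −0.64), miR-1821-3p (0.34 and −0.60) and miR-76-3p (0.30 and −0.53) were alike: each had a downward wild-type slope, and the wild-type part and the remainder had opposite signs. In lin-4-3p and let-7-3p the terms ran the other way, with wild-type parts of −0.84 and −1.41 and remainders of 0.73 and 0.66.

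The arms of a hairpin could differ in kind. In 74 hairpins both arms averaged 50 or more. The offset was called for 40 guides and 31 passengers, and the rhythm of the difference for 12 guides and 14 passengers. Over all 209 well-measured arms, 106 offsets and 32 rhythms were called, and guides were not tested against passengers. Both arms were called in the same direction in 18 hairpins and in opposite directions in 3. Each delay-following arm of mir-240, mir-5592, mir-77 and mir-228 had a partner in the same class, as did the neighbouring hairpins mir-357 with mir-358 and mir-240 with mir-786 (annotation of WBcel235, not the ce10 build of the authors' alignment). Other cases went against this. The 5p arms of mir-44 and mir-45 were delay-following and their 3p arms offset-keeping. Neighbours also differed in class, as in mir-359 with mir-785, mir-74 with mir-75, and mir-228 with mir-790.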

How the data were processed

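Small RNA was sequenced from whole larvae, 1 library per strain and hour from 18 h to 31 h. The authors used Bowtie, called from QuasR, for alignment to ce10 and counted reads starting near the 5′ end of annotated arms of miRBase release 22. The versions of Bowtie and QuasR were not given in the sources used here. The deposited counts are whole reads per arm. The deposited log2 values are the log2 of those counts scaled so that every library has the mean total, after a pseudocount of 8 was added. Recomputing them from the counts gave each value within 0.001.

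The deposited log2 values were analysed in R 4.3.3 with limma 3.58.1. Paired differences at the same hour were fitted with intercept, hour and a 7 h cosine and sine, without weights, over 406 arms with a read, at an adjusted p of 0.01. The spline test used 6 components on all 28 libraries. edgeR 4.0.16 and DESeq2 1.42.0 served as alternatives on the counts, and the pipeline was tested on simulated data. The simulated counts were independent between hours, flat in wild type and scaled with TMM factors. That test therefore does not cover the calls of rhythmic arms or the deposited scaling. Classes, lag profile, slope relation and phases carry no test. Library totals were between 4938126 and 13223782 reads, so an arm with 3 reads lay near the limit of detection in each library, and such limits cover counting error only. No libraries held identical values, and no library was left out.

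Named arms were the 10 highest and 10 lowest offsets of 1 sign in at least 12 of 14 hours, the 8 largest of each class, up to 5 trends in each direction, up to 8 rhythms by p, arms whose offset and remainder had opposite signs, and the guides of the 8 lists. Other arms were named after their values were seen. The members, lists and tests were chosen with earlier results of these data known. The pair is the shared clock hour that the labels give. Gene neighbours were read from the WBcel235 annotation by name. No sequences are printed.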

Additional observations from a re-analysis of the deposited data

Results flagged for a closer look

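The strains differed in the course of 8 arms over time and in the 7 h rhythm of 36, each tested on the hourly difference with limma at an adjusted p of 0.01. The trend differences, mutant minus wild type per h on the log2 scale, were −0.37 for miR-246-3p and −0.25 for miR-246-5p, −0.15 for miR-38-3p and −0.15 for miR-36-3p, −0.13 for miR-39-3p, −0.0848 for miR-40-3p, 0.10 for miR-61-3p and 0.17 for miR-788-5p. Both arms of mir-246 and 4 of the 6 clustered mir-35 family guides moved downward. The level of miR-246-5p, 85.5 normalised counts on average in N2 and 12.9 in HW3527, was under the minimum mean of 50, so it was not classed.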

How the results depend on the processing

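The offset was called for 88 to 143 arms under the alternatives for scaling, pseudocount, filter, tool, period and hours, and for 175 at a threshold of 0.05. With the clock hour as a replicate block and the mean difference alone, 105 arms were called, 100 of them among the 125. Without the block (B-spline fit) 143 were called. Counts of called trends were the least stable: 3 with a pseudocount of 1, 20 at a threshold of 0.05, 13 with a period of 8 h, 4 without hours 28, 29 and 31, and 3 with hours 21 to 31 alone, against 8. Called rhythms fell from 36 to 1 with a period of 6 h and to 20 with hours 21 to 31 alone. Leaving out each hour in turn gave 113 (25 h) to 125 called offsets, 4 (26 h) to 9 (19 h) called trends and 21 (22 h) to 39 (31 h) called rhythms. Delay-following arms numbered 12 at a lag of 2 h, and the line of offset on slope was −3.03 h with the slope of the mutant. The lag of 3 h had the smallest median SD under each alternative tried. No named value changed sign while called. Of the comparisons of named arms across alternatives, 862 stayed on their side of the threshold, 67 fell below it and 29 passed it. The causes were not tested. Depth limits arms near 3 reads in a library.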
